A study of Mus musculus with 4 samples.

Results

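The semaphorins, plexins and neuropilins were followed in cultures of mouse prefrontal cortex (PFC) grown with or without FGF2. The set holds every protein-coding gene whose symbol names a class 3 to class 7 semaphorin, a plexin of class A, B, C or D, or a neuropilin, which gave 31 of the 55421 listed genes, namely 20 semaphorins, 9 plexins and 2 neuropilins. The cells came from wild-type (WT) C57BL/6 pups at P0, were dissociated with papain after the meninges and vessels had been peeled away, and were grown for 10 days in neurobasal medium with B27. FGF2, a growth factor that acts on neural progenitors and glia, was added at 5 ng/mL to the treated cultures and was not added to the others, and the groups shared everything else that the labels name. Total RNA was sequenced in 2 libraries with FGF2 and 2 without FGF2. The study's methods call the replicates technical except at named human stages, in a passage that lists only human cultures. The titles of the mouse samples end in the letter B and a replicate number, which is not explained. Whether the 2 libraries of a group are separate cultures is thus not given, and the spread behind each p-value may be technical.

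Semaphorins are guidance cues that steer axons, dendrites and migrating neurons, and most act through plexins. Class 3 semaphorins are secreted and generally bind a neuropilin, which passes the signal on through a class A plexin. Semaphorins of classes 4, 5 and 6 span the membrane and bind plexins directly, and the class 7 semaphorin is held in the membrane by a GPI anchor. The intracellular part of a plexin acts on small GTPases, which changes adhesion and the actin and microtubule skeleton and can make a growth cone collapse. In the cortex these proteins guide callosal and thalamocortical axons and the migration of interneurons (IN), and several are also made by glia.

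The libraries held 9166432 and 9907613 gene counts with FGF2 and 10460236 and 10799886 without FGF2. Levels are given in CPM, the gene counts scaled to a common library total with TMM factors, and a difference was called at an edgeR adjusted p below 0.05. At these depths 3 counts, the limit that a count of 0 allows, were worth between 0.278 and 0.327 CPM. Markers of the cell types moved between the groups. The summed level of 8 inhibitory neuron markers was 647 and 660 CPM with FGF2 and 1100 and 1135 CPM without FGF2, and 8 of 8 were lower with FGF2. For 8 excitatory neuron (EN) markers the sums were 504 and 482 CPM against 611 and 644 CPM, with 3 lower. The 8 astrocyte markers summed to 12427 and 12309 CPM against 7526 and 7478 CPM, with 7 higher. For 5 oligodendrocyte precursor markers the sums were 628 and 626 CPM against 325 and 334 CPM, with 5 higher. Markers of neurons and glia of the labelled tissue were thus present. Of 6 endothelial markers Cldn5 was at 0 in every library, Cdh5 and Tek were too low to test, Pecam1 was not called, Flt1 was higher and Kdr was lower.

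Among the 31 genes, 12 were higher with FGF2, 12 were lower, 6 did not pass the test and Sema3g had no count in any library and was not tested. The 24 called genes are 80% of the 30 tested, while 40.5% of the 17144 genes tested in all were called (20.7% higher and 19.9% lower). With DESeq2 21 members were called, against 23.2% of the genes it tested. All 30 tested members had a mean of at least 5 CPM, and among all tested genes at that level 48.1% were called. The members were also more abundant, with a median mean level of 71.5 CPM against 19.6 CPM for all tested genes. Genes with more counts are called more easily, so these shares are not matched for level. In 27 of the 30 the groups did not overlap, against 67.0% of all tested genes, and the 3 with overlap were Nrp1, Sema4b and Sema4c. The median log2 fold change of the 30 was -0.01 and that of all tested genes was -0.0008, whereas the median absolute log2 fold change was 0.53 against 0.28. Genes of one class often differed in direction, so the classes are described one after the other. In these bulk libraries, fewer cells of a type and less RNA per cell cannot be told apart.

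**Figure D1:**
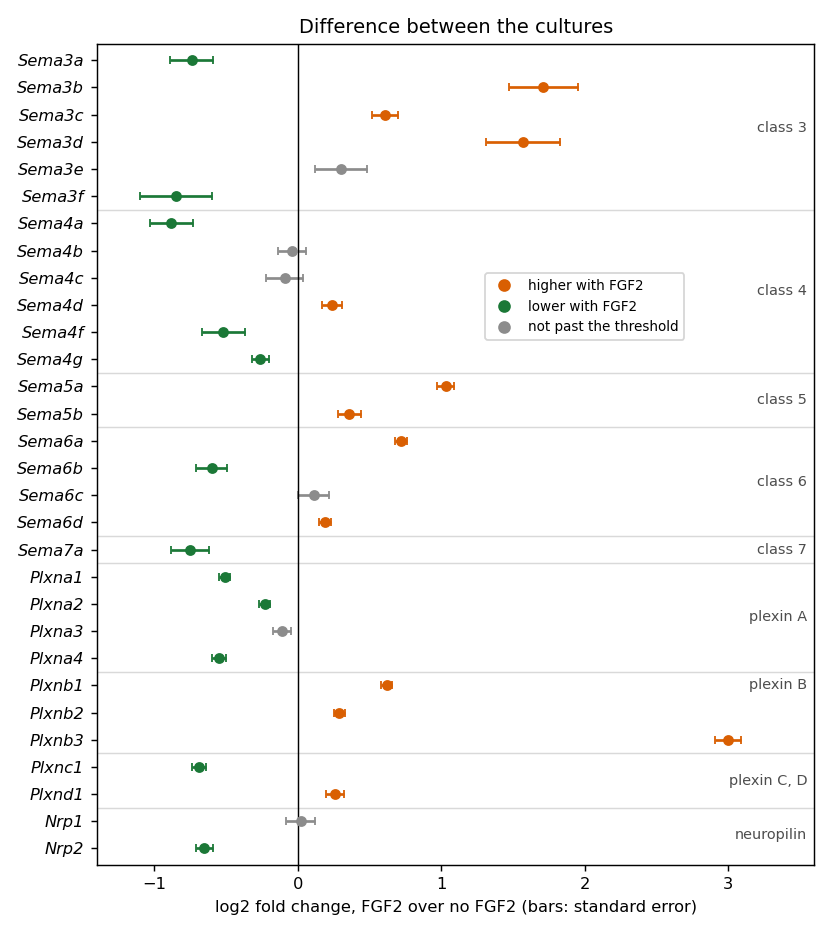
Log2 fold change of each of the 30 tested genes, FGF2 over no FGF2, on the horizontal axis, with bars for 1 standard error of the edgeR fit and colours for the call. Plxnb3 stands far to the right at 3.00, all 3 class B plexins lie above 0, and the 4 class A plexins lie below 0.

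The secreted class 3 semaphorins split, with 3 of the 6 tested higher, 2 lower and 1 not called. Sema3b (chr9:107597674-107609229, minus strand, mm10) had 10.7 and 10.4 CPM with FGF2 and 2.94 and 3.5 CPM without FGF2. It was 3.26-fold higher, with a log2 fold change of 1.71 ± 0.24 (SE, n = 2 libraries per group; edgeR adjusted p = 3.0e-11). Sema3d had 7.91 and 9.84 CPM with FGF2 and 3.42 and 2.58 CPM without FGF2, which gave 1.57 ± 0.26 as the log2 fold change (edgeR adjusted p = 1.6e-08). Both were among the least abundant members, and for both the groups were well apart. Sema3c, which attracts cortical axons, had 53.4 and 54.7 CPM against 37.4 and 33.4 CPM and was higher by 0.61 ± 0.09 on the log2 scale (edgeR adjusted p = 9.7e-10).

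The class 3 genes that fell encode well-studied repellents. Sema3a, which repels cortical axons through Nrp1, had 13.8 and 10.8 CPM with FGF2 and 18.7 and 22.5 CPM without FGF2 (log2 fold change -0.74 ± 0.15, edgeR adjusted p = 4.7e-06). Sema3f, which acts mainly through Nrp2, had 4.18 and 4.26 CPM against 8.16 and 7.09 CPM, which gave -0.85 ± 0.25 as the log2 fold change (edgeR adjusted p = 0.00256). This call was made on 38 and 42 counts against 86 and 77, and it was lost with DESeq2 (adjusted p = 0.096) and in edgeR without replicate 1 of the cultures without FGF2 (log2 fold change -0.75, adjusted p = 0.0687). Sema3e, a ligand that binds Plxnd1 without a neuropilin, had 10.3 and 13.6 CPM against 10.1 and 9.4 CPM, and its log2 fold change of 0.30 had a 95% interval from -0.05 to 0.66 (edgeR adjusted p = 0.183). Its groups did not overlap, yet the libraries with FGF2 differed from each other by more than those without FGF2.

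Sema3b and Sema3f are neighbours in the genome and moved in opposite directions. Both are on the minus strand of chromosome 9, separated by 72.3 kb with 3 protein-coding genes between them. The ratio of Sema3b counts to Sema3f counts was 2.55 and 2.45 with FGF2 and 0.36 and 0.494 without FGF2, so the more counted gene of the pair changed (exact two-sided permutation p = 0.333, the smallest that 2 against 2 libraries allow). Sema3d and Sema3a lie next to each other on the plus strand of chromosome 5, with 536 kb and no protein-coding gene between them, and they also differed in direction. Sema3e and Sema3c follow on the same strand, 423 kb after Sema3a and 3318 kb after Sema3e.

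Of the 6 transmembrane class 4 semaphorins, 1 was higher, 3 were lower and 2 were not called. Sema4a had 12.9 and 10.3 CPM with FGF2 and 21.8 and 20.6 CPM without FGF2, the lowest log2 fold change of the whole set (-0.88 ± 0.15, edgeR adjusted p = 5.7e-08). Sema3f, at -0.85 ± 0.25, was within the error of this value. Without replicate 2 of the cultures with FGF2 their order was reversed (-0.73 for Sema4a and -0.87 for Sema3f). Sema4f had 13.5 and 14.4 CPM against 20.8 and 19.3 CPM (log2 fold change -0.52 ± 0.15, edgeR adjusted p = 0.0015), a call that was lost with DESeq2 (adjusted p = 0.0779). Sema4g, a ligand of Plxnb2 and the most abundant gene of the class, had 113 and 106 CPM against 130 and 131 CPM (log2 fold change -0.26 ± 0.06, edgeR adjusted p = 1.3e-04). The genes that fell thus included both low and high members of the class.

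Sema4d, the ligand of Plxnb1 and a product of oligodendrocytes as well as neurons and immune cells, was the class 4 gene that rose. It had 88 and 89.5 CPM with FGF2 and 76 and 74.5 CPM without FGF2 (log2 fold change 0.24 ± 0.07, edgeR adjusted p = 0.00349). The groups did not overlap, but the call was lost with DESeq2 (adjusted p = 0.0853) and in edgeR without replicate 2 of the cultures without FGF2 (adjusted p = 0.0671). Sema4b had 41.8 and 41.7 CPM against 44.6 and 41 CPM, with a 95% interval of the log2 fold change from -0.22 to 0.15. Sema4c had 19.8 and 20.6 CPM against 19.6 and 23.4 CPM, with an interval from -0.35 to 0.17. For neither gene was a difference detectable.

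Both class 5 semaphorins, which carry thrombospondin repeats and can attract or repel axons, were higher with FGF2. Sema5a (chr15:32244810-32696341, plus strand) had 179 and 191 CPM with FGF2 and 92.5 and 88.9 CPM without FGF2. Its level was 2.04-fold higher, at 1.03 ± 0.06 as the log2 fold change (edgeR adjusted p = 2.8e-66). Sema5b had 82.4 and 76.1 CPM against 58.5 and 64.9 CPM (log2 fold change 0.36 ± 0.08, edgeR adjusted p = 1.7e-05). The class rose as a whole, Sema5a by more.

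In class 6, whose members bind class A plexins and can also act as receptors, 2 genes were higher, 1 was lower and 1 was not called. Sema6a had 447 and 436 CPM with FGF2 and 269 and 267 CPM without FGF2, which gave 0.72 ± 0.04 as the log2 fold change (edgeR adjusted p = 1.0e-65). Sema6d had 332 and 346 CPM against 297 and 299 CPM (log2 fold change 0.19 ± 0.04, edgeR adjusted p = 5.2e-05). These are the most abundant semaphorins of the cultures, and both rose. Sema6b went the other way, with 29.6 and 26.6 CPM against 43.3 and 41.5 CPM (log2 fold change -0.60 ± 0.11, edgeR adjusted p = 1.4e-07), so that there were 15.1 and 16.4 Sema6a counts for each Sema6b count with FGF2 and 6.23 and 6.44 without FGF2. Sema6c had 32.4 and 34.3 CPM against 30.7 and 31.1 CPM (log2 fold change 0.11, 95% interval -0.10 to 0.33), and it passed the test after offsets for GC content and length (0.28, adjusted p = 0.0286).

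Sema7a (chr9:57940112-57962865, plus strand), the GPI-anchored semaphorin that promotes axon outgrowth through integrins and binds Plxnc1, was lower with FGF2. It had 15.6 and 16.4 CPM with FGF2 and 23.4 and 30.7 CPM without FGF2 (log2 fold change -0.75 ± 0.13, edgeR adjusted p = 9.5e-08). The libraries without FGF2 differed from each other more than those with FGF2, at 246 and 333 counts, and leaving out each library in turn gave log2 fold changes from -0.94 to -0.55.

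**Figure D2:**
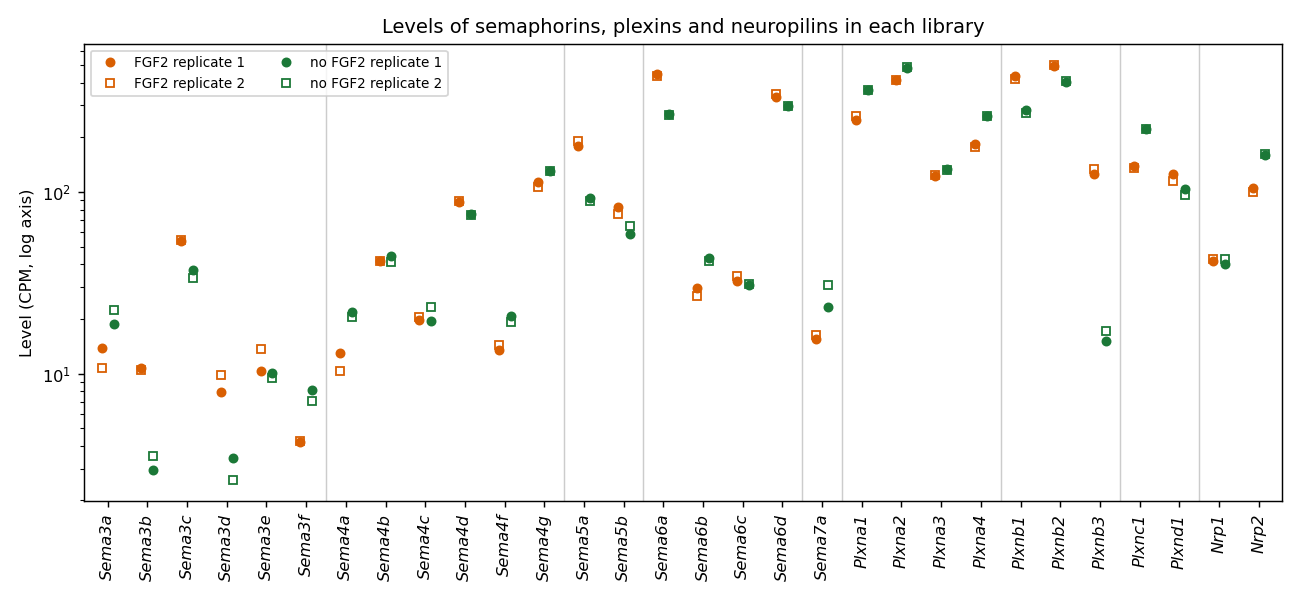
CPM of every tested semaphorin, plexin and neuropilin gene in each of the 4 libraries on a log10 axis, with 1 point per library and colours for the groups. The libraries of a group lie close together for most genes, and the widest gap between the groups is that of Plxnb3, with 125 and 134 CPM with FGF2 against 15.1 and 17.1 without.

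Among the receptors, the 3 class B plexins rose and 3 of the 4 class A plexins fell. Plxnb3 (chrX:73757090-73772514, plus strand), a receptor of Sema5a that is known to be transcribed in the oligodendrocyte lineage, had 125 and 134 CPM with FGF2 and 15.1 and 17.1 CPM without FGF2. These levels rest on 1134 and 1318 counts against 159 and 186. Plxnb3 was 8.01-fold higher, at 3.00 ± 0.09 as the log2 fold change (edgeR adjusted p = 7.0e-238), the largest change of the set. Beside it, 5 of 5 tested markers of differentiated oligodendrocytes were higher, with a summed level of 1243 and 1256 CPM with FGF2 and 238 and 240 CPM without FGF2 and a median log2 fold change of 2.18, and Mog, with 1 to 4 counts in a library, was not tested. The part of these cells in the rise of Plxnb3 was not tested.

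Plxnb1, the receptor of Sema4d, had 435 and 419 CPM with FGF2 and 284 and 272 CPM without FGF2 (log2 fold change 0.62 ± 0.04, edgeR adjusted p = 7.2e-49). Plxnb2, which is needed for the proliferation and migration of neural progenitors, had 492 and 502 CPM against 402 and 411 CPM (log2 fold change 0.29 ± 0.04, edgeR adjusted p = 5.3e-13). All 3 class B plexins were therefore higher, by very different amounts. Of the 30 tested members, 4 had a log2 fold change above 1 (Plxnb3, Sema3b, Sema3d and Sema5a), and none was below -1. Among all tested genes 5.22% were called above 1 and 2.38% below -1. At the latter share a set of this size can hold none, so this absence was not read as a difference. Sema5a (1.03) lay at the limit, with 1.00 after upper quartile scaling and 0.98 once treated library 2 was dropped. Sema4a (-0.88) reached -1.04 once treated library 1 was dropped.

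Of the class A plexins, the signalling partners of the neuropilins and receptors of class 6 semaphorins, 3 of 4 were lower. Plxna4, needed for the response of sensory axons to Sema3a, had 183 and 177 CPM with FGF2 and 263 and 262 CPM without FGF2 (log2 fold change -0.55 ± 0.05, edgeR adjusted p = 1.3e-28). Plxna1 had 250 and 262 CPM against 364 and 366 CPM (log2 fold change -0.51 ± 0.04, edgeR adjusted p = 2.4e-31). Plxna2 had 414 and 413 CPM against 479 and 491 CPM (log2 fold change -0.23 ± 0.04, edgeR adjusted p = 2.1e-08). In each of these the gap between the groups was larger than the gap within either. Plxna3, on chromosome X 557 kb from Plxnb3, had 123 and 124 CPM against 134 and 133 CPM, and its log2 fold change of -0.11 did not pass the test (95% interval -0.23 to 0.00, edgeR adjusted p = 0.119) except after upper quartile scaling (-0.14, adjusted p = 0.0482). Beside the lower class A plexins, the sum of 8 pan-neuronal markers was 2705 and 2743 CPM with FGF2 and 3739 and 3711 CPM without FGF2. Map2 alone made up 1563 and 1581 CPM against 1966 and 1958 CPM of it. Of the 8 markers 6 were lower, Nefm was not called and Nefl was higher (log2 fold change 0.38, edgeR adjusted p = 0.0014). The part of neurons in the plexin values was not tested.

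The class C and D plexins differed in direction. Plxnc1 (chr10:94790866-94944835, minus strand), the receptor of Sema7a, had 139 and 136 CPM with FGF2 and 223 and 221 CPM without FGF2 (log2 fold change -0.69 ± 0.05, edgeR adjusted p = 9.8e-39). Plxnd1, the receptor of Sema3e and best known from blood vessels, had 125 and 115 CPM against 104 and 96.4 CPM (log2 fold change 0.26 ± 0.06, edgeR adjusted p = 2.5e-04), a call that was lost without replicate 2 of the cultures without FGF2 (adjusted p = 0.0671). There were 0.903 and 0.844 Plxnd1 counts for each Plxnc1 count with FGF2 and 0.469 and 0.436 without FGF2. The 6 endothelial markers summed to 9.89 and 7.71 CPM with FGF2 and 4.94 and 8.48 CPM without FGF2, and within them Flt1 rose from 0.57 and 0.829 CPM to 5.72 and 3.65 CPM (log2 fold change 2.71, edgeR adjusted p = 1.1e-08) while Kdr fell from 2.28 and 4.24 CPM to 1.32 and 2.03 CPM (-0.95, adjusted p = 0.0476). The part of these cells in the level of Plxnd1 was not tested.

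Of the neuropilins, Nrp2 fell and no difference was detected for Nrp1. Nrp2 (chr1:62703285-62818695, plus strand), the co-receptor for Sema3f that is also found on migrating interneurons, had 105 and 100 CPM with FGF2 and 159 and 162 CPM without FGF2 (log2 fold change -0.65 ± 0.06, edgeR adjusted p = 1.5e-26). Nrp1 (chr8:128358604-128503363, plus strand), the co-receptor for Sema3a and for VEGF, had 41.5 and 42.6 CPM against 40.2 and 42.7 CPM, with a log2 fold change of 0.02 and a 95% interval from -0.17 to 0.21 (edgeR adjusted p = 0.892). The ratio of Nrp1 to Nrp2 counts was 0.397 and 0.426 with FGF2 and 0.252 and 0.264 without FGF2 (exact two-sided permutation p = 0.333, the smallest possible). The inhibitory neuron markers, lower with FGF2 as described above, moved in the same direction as Nrp2, and their part in its level was not tested.

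Known ligands and their receptors were set side by side in 11 pairs, taken from textbook knowledge after the values had been seen. The list is not complete. Called members such as Sema3b, Sema3c and Sema5b (higher) and Sema4a and Sema6b (lower) are in no pair. Sema5a and Plxnb3 were both higher, at log2 fold changes of 1.03 and 3.00, and so were Sema4d and Plxnb1, at 0.24 and 0.62. Sema7a and Plxnc1 were both lower, at -0.75 and -0.69, as were Sema3f and Nrp2, at -0.85 and -0.65. The calls of Sema4d and Sema3f were lost with DESeq2, as given above. Ligand and receptor went in opposite directions for Sema6a (0.72) with Plxna2 (-0.23) and Plxna4 (-0.55), for Sema6d (0.19) with Plxna1 (-0.51), and for Sema4g (-0.26) with Plxnb2 (0.29). In the other 3 pairs 1 gene was not called: Sema3a (-0.74) was lower and Nrp1 (0.02) not called, and Sema3e (0.30) and Sema4c (-0.09) were not called while Plxnd1 (0.26) and Plxnb2 (0.29) were higher. Itgb1, which encodes the integrin subunit through which Sema7a also acts, was higher by 0.67 on the log2 scale (edgeR adjusted p = 1.9e-34), so the receptors of Sema7a differed in direction.

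The level of each class was compared as CPM per kilobase (kb) of exon, which allows genes of different length to be added. Class B plexins together had 129 ± 0.754 CPM per kb with FGF2 and 84.1 ± 0.161 without FGF2 (mean ± SD, n = 2), and class A plexins had 80.8 ± 0.695 and 104 ± 0.502. The sum of all plexins differed by only 0.08 on the log2 scale, at 242 ± 0.141 and 229 ± 0.253. The make-up of the plexin total therefore shifted, with class B at 53.1% with FGF2 and 36.8% without FGF2, class A at 33.3% and 45.5%, and classes C and D at 13.6% and 17.7%. Plxnb3 alone went from 1.09% without FGF2 to 8.21% with FGF2. For each of these totals the exact two-sided permutation p was 0.333, the smallest that 2 against 2 libraries allow.

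The semaphorin total was 176 ± 0.45 CPM per kb with FGF2 and 151 ± 1.04 without FGF2. Class 6 held the largest share, 54.1% and 49.4%, and Sema6a alone took 28.6% and 20.2%. The shares of class 5 were 12% and 8.96% and those of class 3 were 7.86% and 6.6%, while class 4 held 23.2% and 29.7% and class 7 held 2.77% and 5.41%. In log2 terms the totals of classes 3, 5 and 6 were higher with FGF2 by 0.47, 0.64 and 0.35, and those of classes 4 and 7 were lower, with differences of -0.14 and -0.74. The neuropilin total was lower, at 12.9 ± 0.203 against 17.8 ± 0.346 CPM per kb. Each of these differences exceeded the SD within a group, and none could reach a lower p than 0.333.

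**Figure D3:**
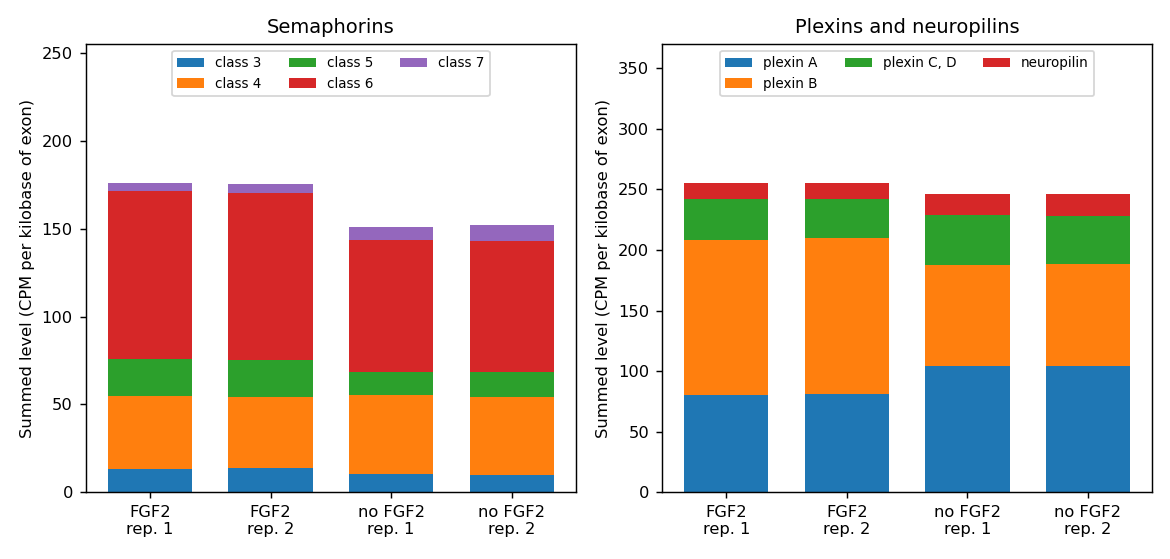
Summed level in CPM per kb of exon in each of the 4 libraries, as bars stacked by class from an axis that starts at 0, with the semaphorins on the left and the plexins and neuropilins on the right. Class A plexins make the smaller block with FGF2 (mean 80.8 against 129 for class B) and the larger block without FGF2 (104 against 84.1).

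Ranked by level per kb, Plxnb2 was first in both groups, at 64.4 ± 0.948 CPM per kb with FGF2 and 52.6 ± 0.794 without FGF2. With FGF2 it was followed by Sema6a (50.3 ± 0.877), Plxnb1 (44.5 ± 1.17), Sema6d (32.1 ± 0.944) and Plxna1 (28.3 ± 0.927). Without FGF2 the next were Plxna1 (40.3 ± 0.154), Sema6a (30.6 ± 0.196), Plxnb1 (29 ± 0.856), and Sema6d and Plxna2 at the same mean of 28.2, so the neighbours from Plxnb1 downwards lay within about 1 SD of each other. Plxnb3 moved from rank 25 without FGF2 (2.48 ± 0.222) to rank 7 with FGF2 (19.9 ± 0.98). Members of class 3 other than Sema3c held ranks 26 to 31 without FGF2 and, with Sema4a among them, ranks 25 to 31 with FGF2, where Sema3b had 2.21 ± 0.0322 CPM per kb against 0.674 ± 0.0826. With the longest transcript as the length, Plxnb2 kept the first rank but the order below it changed. It then ran Sema6a, Sema6d, Plxnb1, Plxna2 and Plxna1 with FGF2, and Sema6d, Plxna2, Plxna1, Sema6a and Plxnb1 without FGF2. Nrp1 moved from rank 23 to rank 17 with FGF2, and Plxnb3 stood at ranks 26 without FGF2 and 8 with FGF2.

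The bases before the start site are shown for 4 members with large differences between the groups, namely Plxnb3 and Sema3d, which rose, and the receptor and ligand Plxnc1 and Sema7a, which both fell. They were taken from the RefSeq annotation of GRCm38.p6, which held a promoter for 26 of the 31 members and none for Plxna1, Plxna4, Sema3b, Sema3f and Sema6a. Each is written 5′ to 3′ on the strand of the gene, from a window of 250 bases before the RefSeq start. Bases in an annotated exon of the gene were left out, so only 237 bases are printed for Plxnb3, whose window ran to chrX:73757102. Capitals mark the letters ACAANG, the core bound by SOX factors, or GGGCGG, the GC box, on either strand. The positions are chrX:73756853-73757089 (plus strand) for Plxnb3, chr5:12382916-12383165 (plus strand) for Sema3d, chr10:94944846-94945095 (minus strand) for Plxnc1 and chr9:57939862-57940111 (plus strand) for Sema7a.
Plxnb3: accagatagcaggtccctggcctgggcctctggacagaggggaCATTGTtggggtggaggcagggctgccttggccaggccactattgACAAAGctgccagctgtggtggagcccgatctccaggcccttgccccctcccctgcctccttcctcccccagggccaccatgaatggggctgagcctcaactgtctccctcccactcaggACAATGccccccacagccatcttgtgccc
Sema3d: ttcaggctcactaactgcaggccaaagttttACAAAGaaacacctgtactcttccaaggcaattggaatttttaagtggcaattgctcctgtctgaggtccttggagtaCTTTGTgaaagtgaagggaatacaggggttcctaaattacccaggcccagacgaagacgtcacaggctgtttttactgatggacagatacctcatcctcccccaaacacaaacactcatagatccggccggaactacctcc
Plxnc1: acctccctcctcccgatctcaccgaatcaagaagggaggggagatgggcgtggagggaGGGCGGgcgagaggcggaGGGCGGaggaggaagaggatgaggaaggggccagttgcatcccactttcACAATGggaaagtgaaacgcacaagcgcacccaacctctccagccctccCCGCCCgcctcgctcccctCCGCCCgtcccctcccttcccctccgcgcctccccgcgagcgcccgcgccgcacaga
Sema7a: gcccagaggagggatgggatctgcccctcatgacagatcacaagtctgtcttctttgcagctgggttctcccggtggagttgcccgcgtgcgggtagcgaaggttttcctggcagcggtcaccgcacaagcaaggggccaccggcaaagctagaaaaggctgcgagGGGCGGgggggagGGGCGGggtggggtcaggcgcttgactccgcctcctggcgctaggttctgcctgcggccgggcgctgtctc
The windows of Plxnb3 and Sema3d held 3 and 2 matches of ACAANG and no GC box, that of Plxnc1 held 1 and 4, and that of Sema7a held no ACAANG and 2 GC boxes. No 2 of the marked matches overlapped. These 4 windows do not stand for all genes that rose or fell: the window of Sema5a, which rose, held 5 GC boxes and no ACAANG.

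Across the 37 windows of the 26 members, 27 (73%) held GGGCGG, against 32.7% of 32851 windows of all genes, and their median GC content was 64.0% against 52.4%. ACAANG was in 12 (32.4%) against 36.3%, the E-box CANNTG in 19 (51.4%) against 66.2%, and the AP-1 letters TGANTCA in 3 (8.11%) against 6.75%. The ETS letters CCGGAAG were in 1 window, that of Plxnb1 (2.7% against 6.91%), and TGACGTCA, the CRE, was in 0 against 1.55%. Both strands were searched, and several windows of a gene share bases. The GC box was found in windows of genes that rose and of genes that fell, with 8 of 14 windows of the former and 10 of 13 of the latter, and ACAANG was in 4 of 14 and 6 of 13. Matches of letters describe the windows only.

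The other genes of the pathway, 47 in 4 lists taken from textbook knowledge, were also read. Of the 45 tested, 17 were higher, 16 were lower and 12 were not called, where 20.7% of all tested genes were higher and 19.9% lower. Among 14 tested co-receptors and other binding partners, 6 were higher and 5 lower, with a median log2 fold change of 0.43. Itga1, an integrin subunit that pairs with Itgb1, had 41.8 and 42.7 CPM against 18.9 and 20.5 CPM (log2 fold change 1.10, edgeR adjusted p = 1.3e-20). Gipc1, an adaptor that binds the tail of Nrp1, had 74.4 and 80.6 CPM against 35.2 and 38.4 CPM (log2 fold change 1.07, edgeR adjusted p = 3.3e-34). Erbb2, a receptor kinase that associates with class B plexins, had 30.3 and 28.4 CPM against 15.6 and 16.2 CPM (log2 fold change 0.88, edgeR adjusted p = 1.1e-10). These 3 had the largest changes of the list at 5 CPM or more, and all were higher. The 5 lower genes were L1cam, Cntn2, Nrcam, Chl1 and Kdr. Of these, L1cam had 260 and 254 CPM against 393 and 412 CPM (log2 fold change -0.65, edgeR adjusted p = 1.5e-51).

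The collapsin response mediators and MICAL enzymes carry the signal from plexins to microtubules and actin, and 6 of these 8 genes were lower and 1 was higher (median log2 fold change -0.29), where 19.9% of all tested genes were lower and 20.7% higher. Crmp1 had 422 and 437 CPM with FGF2 and 753 and 757 CPM without FGF2 (log2 fold change -0.81, edgeR adjusted p = 1.3e-105), and Dpysl5 had 402 and 407 CPM against 685 and 697 CPM (-0.77, adjusted p = 1.1e-92). Mical1, an enzyme that oxidises actin, was the gene that rose, from 12.7 and 12.9 CPM to 21.3 and 17.2 CPM (0.59, edgeR adjusted p = 4.6e-04). The mediators that fell moved in the same direction as 6 of the 8 pan-neuronal markers given above, whose part was not tested.

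Of the 13 GTPases and their regulators, 8 were higher, 1 was lower and 4 were not called (median log2 fold change 0.22), where 20.7% of all tested genes were higher and 19.9% lower. Rras, a GTPase that plexins switch off, had 55.3 and 50 CPM with FGF2 and 16.3 and 16.2 CPM without FGF2 (log2 fold change 1.69, edgeR adjusted p = 7.6e-49). Rnd2 and Rnd1, small GTPases that bind plexins, had log2 fold changes of 0.93 and 0.86 (edgeR adjusted p = 1.5e-29 and 2.8e-09). Rnd2 had 91.2 and 81.8 CPM against 46 and 44.5 CPM, and Rnd1 had 26.4 and 25.2 CPM against 13.6 and 14.7 CPM. Among the 10 kinases and actin regulators 2 were higher, 4 lower and 4 not called. Limk1, which phosphorylates cofilin, had 34.6 and 34.4 CPM against 62.5 and 60.2 CPM (log2 fold change -0.83, edgeR adjusted p = 4.0e-18), and Pak1, a kinase that activates it, fell by 0.45 on the log2 scale (edgeR adjusted p = 1.5e-13). Fyn, a kinase in the response to Sema3a, had 376 and 375 CPM against 239 and 246 CPM (log2 fold change 0.63, edgeR adjusted p = 2.7e-47).

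**Figure D4:**
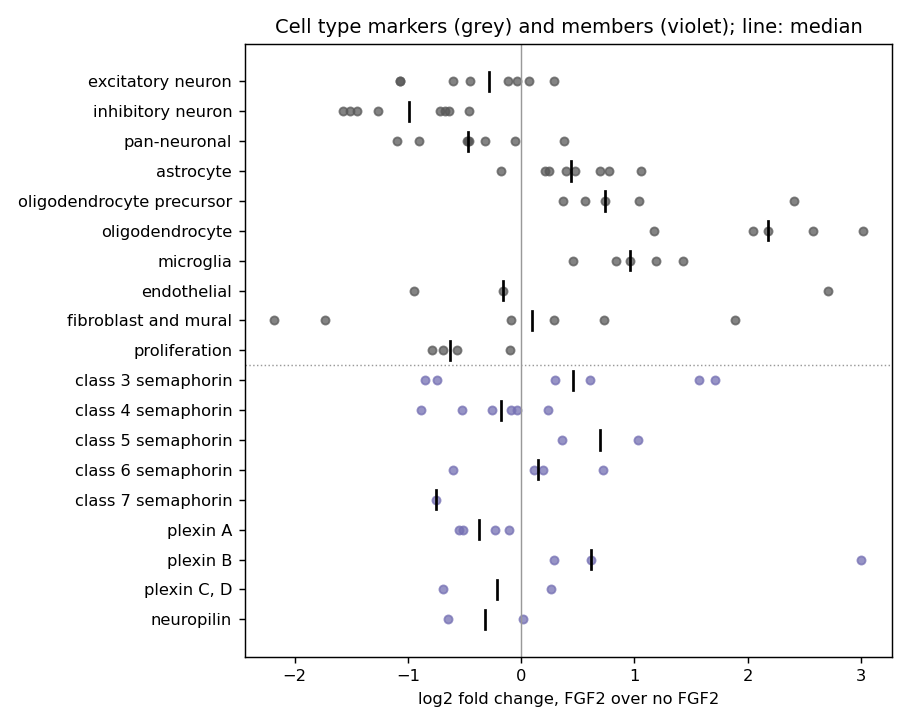
Log2 fold change, FGF2 over no FGF2, of the tested markers of each cell type (grey points) and of the semaphorins, plexins and neuropilins by class (violet points), with 1 point per gene and a line at the median. Inhibitory neuron markers have a median of -0.99 and oligodendrocyte markers of 2.18, and the class medians run from -0.75 for class 7 to 0.69 for class 5.

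Other cell types gave smaller sums. Of 8 microglia markers 5 were tested and 4 were higher, with sums of 38.1 and 40.9 CPM against 23.9 and 24.9 CPM, while the defining markers P2ry12, Aif1 and Tmem119 were too low to test. Fibroblast and mural markers summed to 66.2 and 62.8 CPM against 50.1 and 51.8 CPM, with 2 higher and 2 lower of 6 tested. Pdgfrb alone made up 49 and 46.4 CPM against 28.6 and 28.8 CPM of this sum. The genes that rose were Pdgfrb and Rgs5 (log2 fold changes 0.73 and 1.89). Those that fell were the collagen genes Col1a1 and Col1a2 (-2.18 and -1.73), so the sum does not stand for all of its markers. For 4 proliferation markers the sums were 139 and 134 CPM against 179 and 181 CPM, and 3 were lower. The part of these cells in the levels of semaphorins and plexins was not tested.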

How the data were processed

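Total RNA of mouse PFC cultures was sequenced as 150 bp paired reads in 4 libraries, 2 per group. The deposited values are raw read counts per gene: the authors aligned the reads to mm10 with HISAT2 (2.1.0), kept alignments above a mapping quality with Samtools, and counted with HTSeq (0.11.2). The filter drops reads that map to several places, so genes with near-identical copies can be counted too low. The annotation release and strand setting are not given in the sources used here. The 5 tally entries were left out of library sizes, and reads in no feature made up 43.2% to 45.9% of the tallied reads. Of 55421 genes, 55240 matched GENCODE M21, which gave symbols, coordinates and exon lengths.

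Genes were filtered with filterByExpr and tested between the groups with the quasi-likelihood test of edgeR (4.0.16; TMM, robust fit, R 4.3.3), and p-values were adjusted by Benjamini-Hochberg over all 17144 genes tested. SE is the log2 fold change divided by the root of F, and intervals are the estimate ± 1.96 SE. Class totals were tested with an exact two-sided permutation test over libraries. Simulated data with 200 changed genes among 17144 gave 164 of 200 recovered at 2-fold with 9 false calls, and 19 at 1.2-fold. The simulation took its dispersions from these libraries and changed a far smaller share of genes than the 40.5% called here. Its rates therefore do not carry over to these data. Alternatives were DESeq2 (1.42.0), limma-voom (3.58.1), other scalings, filters and thresholds, GC and length offsets, a replicate block and leaving out each library. Libraries of a group differed by more than counting error (chi-square per degree of freedom 2.28 with FGF2 and 1.76 without FGF2).

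The members and lists were chosen with earlier results of these data known. Named with values in each class were called members of at least 5 CPM, at most the 4 with the largest absolute log2 fold change. The neuropilins and Sema7a were named as well, and so were the 3 largest in each pathway list. The values of Sema3c, of L1cam and of members that were not called were added for completeness. The limit for a count of 0 covers counting error only. Transcripts of 7 members shared 100 or more bases at 95% identity or above with some other gene by BLAST (2.17.0). For Plxna1, Plxna4, Plxnb1 and Plxnc1 this was a gene whose exons overlap those of the member. The others were Sema3a, Sema3e and Sema4b, whose hits were in genes that do not overlap them. Counts of all 7 are less certain for that reason. Genes that overlap members had at most 32 counts in a library.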

Additional observations from a re-analysis of the deposited data

How the results depend on the processing

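All 24 called members kept their direction under every alternative run, and 20 kept the call under each of them. Of the members, 11 were higher and 10 lower with DESeq2, 13 and 12 with GC and length offsets, 12 and 13 with upper quartile scaling, 12 and 11 when replicate 1 of the untreated cultures was left out, and 10 and 12 when their replicate 2 was. Same-numbered libraries did not deviate together (correlation 1.3e-05), and the labels give them only the letter B with a number in common. Whether they shared a preparation is not given and cannot be told from this value. With the replicate block 12 were higher and 12 lower and each of the 30 kept its call, and with the offsets and the block together 13 and 12 were. The pathway genes were between 16 and 20 higher and between 13 and 17 lower. The only changes of sign were in members that were not called: Nrp1 had -0.03 with the offsets, with and without the block, and -0.0046 with upper quartile scaling, and Sema4b had 0.05 with the offsets, with and without the block. Leaving out each library in turn gave between -0.03 and 0.06 for Nrp1, between -0.10 and 0.02 for Sema4b and between -0.22 and 0.04 for Sema4c, with the opposite sign in the fit without untreated replicate 1 for the first and second and without untreated replicate 2 for the last. Class totals moved by more than the spread of the libraries with total count scaling (class A plexins -0.38, class B plexins 0.60, class 4 -0.16, class 6 0.33, all semaphorins 0.20 and all plexins 0.07) and with the longest transcript as the length (neuropilins -0.40, class A plexins -0.35, class B plexins 0.59, class 3 0.37 and all plexins 0.07). The causes of these changes were not tested. Sema3f, Sema3b and Sema3d had the fewest counts among the tested members, and of these Sema3f lost its call under an alternative, as did Sema4d, Sema4f and Plxnd1.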
